A study of Rattus norvegicus with 4 samples.

Results

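The genes described here are the 40 DNA replication and S phase genes listed for the MCM2-7 helicase and its loading factors, the GINS complex, the replicative polymerases, the sliding clamp and its loader, deoxynucleotide synthesis, chromatin assembly and the E2F and cyclin E regulators. They were chosen by gene symbol, and all 40 were found among the 17899 rat genes of the expression table. The samples were 4 bulk RNA libraries made from the synovium, or joint lining, of rats labelled as having osteoarthritis. AdMSC 1 came from synovium given human AdMSCs and SyMSC 1 from synovium given human SyMSCs, which are human mesenchymal stem cells of different origin, and PBS 1 and PBS 2 came from synovium given PBS, a buffered salt solution. All 4 libraries share the disease label. The tissue was collected the day after the cells were given. When the PBS tissue was taken is not stated in the sources used here, and the series title speaks of a time before and a time after injection, so treatment and time of collection cannot be told apart. In the sources used here, neither the rats' strain, age, sex and osteoarthritis model nor the cell dose or any pooling of animals is stated. Library titles join AdMSC 1 with PBS 1 under the word Ad and SyMSC 1 with PBS 2 under the word Sy, and call the PBS libraries "mix" without saying what was mixed.

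Before a cell copies its DNA, the origin recognition complex with CDC6 and CDT1 places the MCM2-7 helicase on origins, a step called licensing. At the start of S phase cyclin E and its kinase, with MCM10, CDC45 and GINS, turn the loaded ring into a running helicase, and polymerases held by the PCNA clamp then copy both strands. Most of these genes are transcribed under E2F factors, which the retinoblastoma proteins hold in check until a cell commits to division. Normal synovium is known as a tissue with little cell division, and these genes are low in cells at rest.

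Every one of the 40 genes stood higher in each library from synovium given human cells than in either PBS library. How reads of the human cells were handled is not given in the sources used here. Whether such reads entered these rat gene levels was not tested. The largest changes were in Rrm2, the regulated subunit of ribonucleotide reductase, and Cdt1, the licensing factor, at log2 changes of 2.34 and 2.05. The smallest was in Gins3, a GINS subunit, at 0.41. Levels are in TPM, which are corrected for transcript length and scaled to the same total in every library. Log2 changes are the mean of the 2 injected libraries minus the mean of the 2 PBS libraries in log2(TPM + 1), a scale on which changes of low genes come out too small, and SE is the standard error of that change. The ratio of mean TPM had a median of 2.48 over the 40 genes. By this measure Cdt1 (5.32) came before Rrm2 (5.15).

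With limma's moderated test across 13371 genes and Benjamini-Hochberg adjustment, 39 of the 40 genes rose at an adjusted p under 0.05, none fell and 1 did not pass. Over all tested genes 23.7% were called higher and 24.7% lower, 48.4% in all. Injected and PBS libraries did not overlap, with the injected ones above, for 40 of 40 members and for 39.5% of all tested genes. The members' median log2 change was 1.22, against 0.001 over all tested genes. A log2 change of at least 1 was reached by 25 of 40 members and by 10.5% of tested genes. The labels do not say whether the libraries came from different animals, and the p-values therefore rest on a spread between libraries that may be technical. All 40 genes passed the filter of at least 1 TPM in at least 2 libraries, but Orc1, under 1 TPM in both PBS libraries, did so through the injected libraries alone and had to differ. Of the other 39 genes, 38 rose, with a median log2 change of 1.20.

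**Figure D1:**
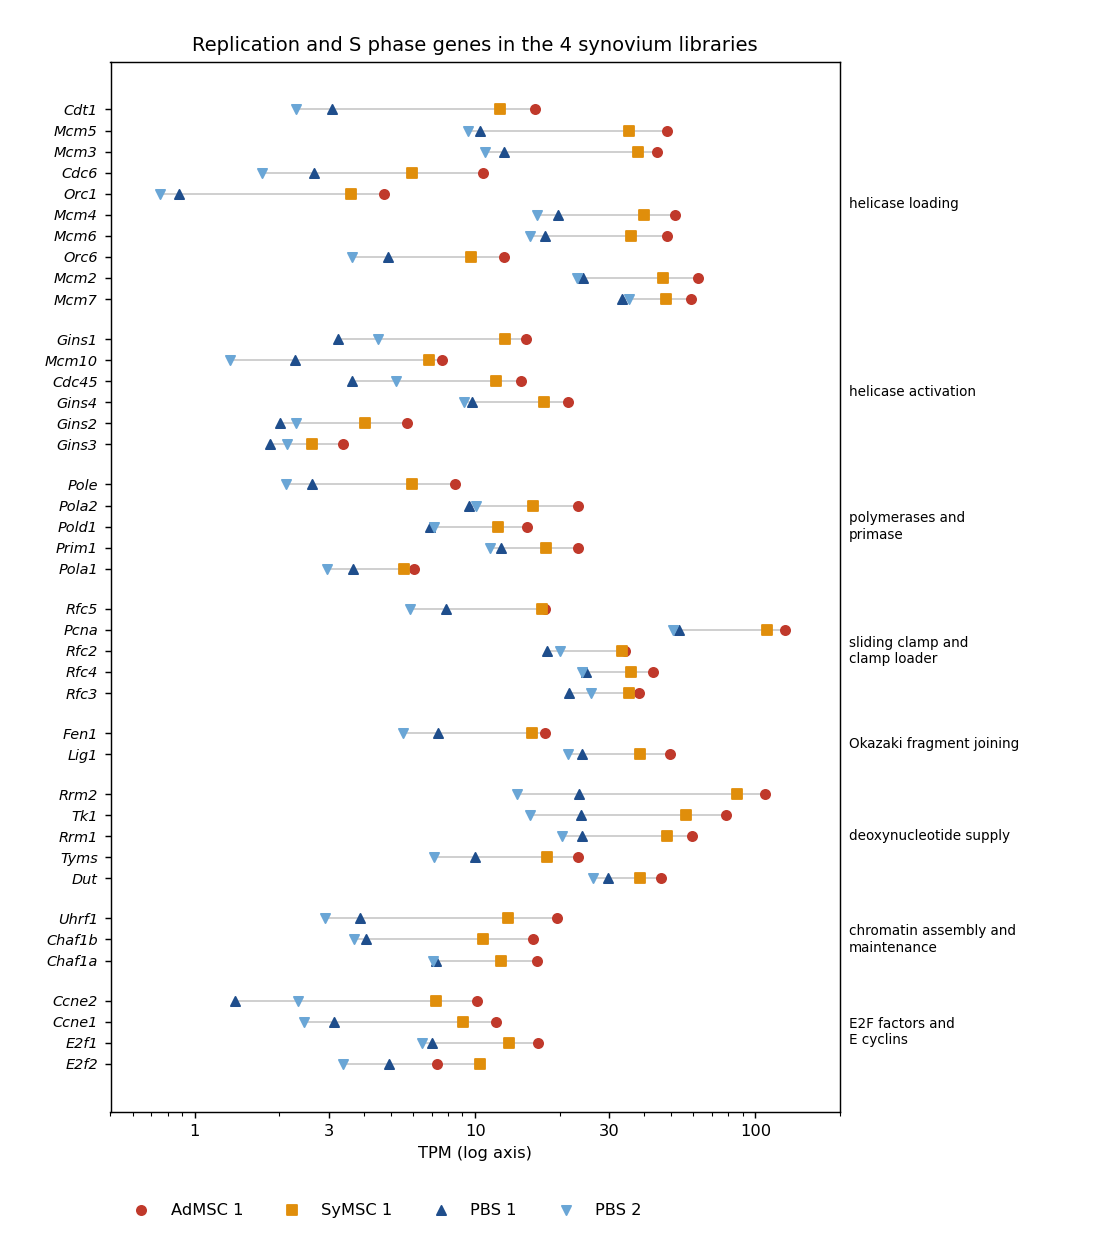
TPM of each of the 40 genes (rows, grouped by role at the right) on a log axis, 1 point per library, with a grey line from the lowest to the highest library. In every row the red and orange points (AdMSC 1, SyMSC 1) lie to the right of both blue ones (PBS 1, PBS 2), and AdMSC 1 is the highest library in all rows but E2f2.

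**Figure D2:**
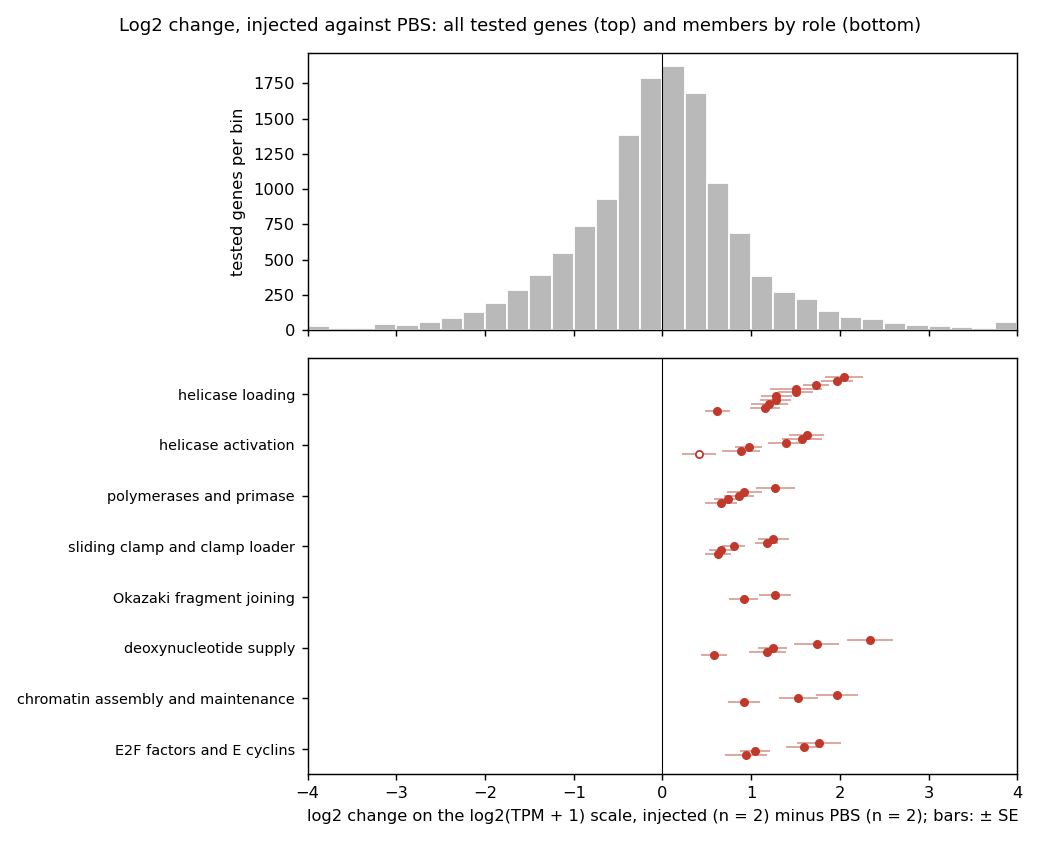
Top, number of tested genes per bin of log2 change (bin width 0.25, end bins hold all genes beyond them); bottom, the log2 change of each member by role with its SE. Members lie between 0.41 and 2.34, to the right of the centre of all tested genes, and the open point is Gins3, which did not pass.

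Added together, the 40 genes made up 1246 TPM in AdMSC 1 and 1001 in SyMSC 1, against 488 in PBS 1 and 443 in PBS 2. Many leukocyte markers were higher in the same libraries. Macrophage and monocyte markers rose in 8 of 12 cases and fell in 2 (in 1 to 3 on leaving out a library), and their summed level was 27437 and 36894 TPM in AdMSC 1 and SyMSC 1 against 11827 and 13871 in PBS 1 and PBS 2. Neutrophil markers rose in 7 of 9 cases, with sums of 2602 and 4468 TPM against 263 and 122, and in 4 without AdMSC 1 and 3 without SyMSC 1. T and NK cell markers rose in 6 of 11 tested cases and fell in 1, with sums of 406 and 471 TPM against 226 and 244. These sums mix opposite changes. Cd4, most of the PBS sums, fell from 174.3 and 205.3 TPM in PBS 1 and PBS 2 to 118.6 and 125.0. Cd8a rose from 4.19 and 4.72 to 109.2 and 125.5 TPM. Cd3e of the same list rose less, from 4.36 and 6.24 to 9.33 and 11.09 TPM. Cd3d and Cd5, higher in both injected libraries, did not pass. Neither did Nkg7, which was lower in both injected libraries, nor Prf1, which overlapped between groups. Lining and sublining markers of synovium fell in 10 of 13 cases, with sums of 17622 and 12155 TPM against 39728 and 32492, and endothelial markers fell in 6 of 6, with sums of 162 and 119.8 TPM against 514 and 566. Skeletal muscle markers summed to 107.8 and 147.9 TPM against 1406 and 498, with a median log2 change of -2.71. Of these 7 genes 3 fell, but 1 without AdMSC 1, 1 without SyMSC 1 and 6 of 6 tested without PBS 2. The lubricin gene Prg4, which marks the synovial lining, lay between 2448 and 4192 TPM in the 4 libraries. Prg4, Has1 and Pdpn were the lining and sublining markers that did not pass. Among those that fell, Clic5 went from 63.3 and 73.5 TPM in PBS 1 and PBS 2 to 4.10 and 4.12 in AdMSC 1 and SyMSC 1. Cd55 went from 123.7 and 120.6 to 45.7 and 48.9 TPM. In bulk tissue more cells of a type and more RNA per cell cannot be told apart, and the part of these cell types was not tested. The macrophage and neutrophil sums were higher in SyMSC 1 than in AdMSC 1. Most of the macrophage sum was Lyz2, at 19300 TPM in AdMSC 1 and 27210 in SyMSC 1. The macrophage markers that fell were C1qb (log2 change -0.65) and C1qc (-0.91), and C1qa (-0.42) and Adgre1 (-0.05) did not pass. The 8 that rose included Cd68 (1.73) and Csf1r (1.30). Gene by gene, AdMSC 1 exceeded SyMSC 1 for 3 of 12 macrophage and 0 of 9 neutrophil markers. It did so for 39 of 40 replication genes and for 65.4% of all tested genes. How these differences relate was not tested.

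Markers of cell types that divide in marrow were compared in the same way. Neutrophil precursor genes summed to 141 TPM in AdMSC 1 and 264 in SyMSC 1, against 191 in PBS 1 and 32.7 in PBS 2, and Ltf, a granule gene of this list, was listed at 0 in 3 libraries. With limma 0 of their 7 tested genes were called, and 1 had an unadjusted p under 0.05; without PBS 1 there was 1 called higher, and without PBS 2 there were 1 higher and 1 lower. That gene was Fcnb, which was above both PBS libraries in both injected ones (114.0 and 176.1 TPM against 40.9 and 13.2, limma adjusted p = 0.0524). Mpo, the granule peroxidase of early neutrophils, overlapped between groups, at 1.98 and 9.23 TPM in AdMSC 1 and SyMSC 1 and at 16.8 and 4.47 in PBS 1 and PBS 2. Erythroid precursor genes summed to 45.7, 77.6, 84.2 and 23.2 TPM in AdMSC 1, SyMSC 1, PBS 1 and PBS 2. The transferrin receptor gene Tfrc, an iron uptake gene that other dividing cells use as well, was the 1 called member of that list (31.3 and 26.1 TPM against 7.52 and 5.60). Ahsp, the chaperone of alpha globin, overlapped between groups, at 5.67 and 21.5 TPM against 26.2 and 5.78. B and plasma cell genes summed to 7.36, 23.5, 12.0 and 3.18 TPM. In the sums of all these 3 lists AdMSC 1 was below PBS 1 and SyMSC 1 was above PBS 2. The part of these cells in the changes was not tested.

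Sequences around the members' start sites are shown as a description, and whether they relate to the changes was not tested. RefSeq promoters of the assembly GRCr8 (250 bases before to 50 after each start site) were matched for 32 of the 40 genes; no entry was matched for Ccne2, Cdc6, E2f1, E2f2, Gins4, Mcm4, Orc1 and Rrm2. Of the members with a single start site entry, those with the 3 largest and the 3 smallest log2 changes are printed. Uhrf1 and Dut, with 3 and 2 entries, are not printed; 1 of the entries of Uhrf1 and none of those of Dut held an E2F site. The E2F site was searched as TTTCCCGC, TTTGGCGC, TTTCGCGC or TTTGCCGC on both strands. Below, each promoter is given from 250 bases before the start site to 30 after it, 5′ to 3′ on the gene's strand, in lower case with every match to the E2F site in capitals. In GRCr8, which is not the build named for the expression table, the stretches lie as follows: Cdt1 at chr19:67528999-67529278 on the plus strand, Mcm5 at chr19:13488563-13488842 on the plus strand, Tk1 at chr10:103544748-103545027 on the minus strand, Gins3 at chr19:9434650-9434929 on the minus strand, Mcm7 at chr12:22163149-22163428 on the minus strand and Rfc3 at chr12:5836318-5836597 on the plus strand.
Cdt1: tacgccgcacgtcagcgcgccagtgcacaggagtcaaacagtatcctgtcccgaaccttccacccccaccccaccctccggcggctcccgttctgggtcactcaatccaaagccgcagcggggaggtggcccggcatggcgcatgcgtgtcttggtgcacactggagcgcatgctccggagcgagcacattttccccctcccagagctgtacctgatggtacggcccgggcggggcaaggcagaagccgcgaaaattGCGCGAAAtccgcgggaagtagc
Mcm5: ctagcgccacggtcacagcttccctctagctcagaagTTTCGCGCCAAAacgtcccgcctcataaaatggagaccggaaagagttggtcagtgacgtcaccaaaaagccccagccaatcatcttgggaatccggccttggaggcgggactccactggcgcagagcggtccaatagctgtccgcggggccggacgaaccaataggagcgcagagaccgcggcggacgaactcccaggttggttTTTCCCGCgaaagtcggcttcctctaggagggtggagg
Tk1: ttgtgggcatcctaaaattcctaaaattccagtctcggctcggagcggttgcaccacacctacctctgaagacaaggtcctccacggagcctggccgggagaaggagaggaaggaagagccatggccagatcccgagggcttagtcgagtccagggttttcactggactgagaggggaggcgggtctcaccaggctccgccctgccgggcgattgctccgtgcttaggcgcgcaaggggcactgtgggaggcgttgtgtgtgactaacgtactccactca
Gins3: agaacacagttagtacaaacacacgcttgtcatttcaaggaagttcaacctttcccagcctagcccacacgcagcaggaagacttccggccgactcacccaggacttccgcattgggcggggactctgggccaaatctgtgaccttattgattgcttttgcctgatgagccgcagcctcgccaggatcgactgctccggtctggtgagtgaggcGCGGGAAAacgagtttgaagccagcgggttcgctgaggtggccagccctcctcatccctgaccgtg
Mcm7: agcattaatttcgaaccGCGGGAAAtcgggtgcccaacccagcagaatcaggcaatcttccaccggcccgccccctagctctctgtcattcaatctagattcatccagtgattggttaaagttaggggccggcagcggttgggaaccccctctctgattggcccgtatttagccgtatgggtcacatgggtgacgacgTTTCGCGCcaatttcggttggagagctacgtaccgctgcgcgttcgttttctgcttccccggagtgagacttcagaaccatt
Rfc3: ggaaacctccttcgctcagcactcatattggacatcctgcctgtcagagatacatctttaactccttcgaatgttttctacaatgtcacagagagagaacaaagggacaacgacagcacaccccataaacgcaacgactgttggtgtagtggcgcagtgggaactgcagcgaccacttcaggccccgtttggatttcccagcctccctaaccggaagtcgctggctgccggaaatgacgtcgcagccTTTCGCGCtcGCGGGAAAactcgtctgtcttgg
Among the 3 with the largest changes, Mcm5 (log2 change 1.97) held 3 matches, of which those starting at positions -213 and -209 overlap on opposite strands and the last starts at -8 (position 1 is the start site). Matches in Cdt1 (2.05) started at 8 and 33, the last beyond the stretch shown, and Tk1 (1.74) held none. Among the 3 with the smallest changes, Rfc3 (0.63) held matches at -3 and 8, Mcm7 (0.62) at -233 and -52, and Gins3 (0.41) at -36. A gene with several entries was counted as holding a motif if any of them did. An E2F site was found in 14 of 32 members (43.8%), in 4.20% of the 10546 tested genes with a promoter entry and in 2.37% of all 27457 genes of the table. The shorter core, each of these sites without its first T, was found in 23 of 32 members (71.9%) and in 17.7% of tested genes. Among 20 mitosis and G2 genes the full site was found in 1 (5.0%). The CHR element (TTTGAA, with TTCGAA counted too) was found in 14 of those 20 (70.0%), in 6 of 32 members (18.8%) and in 14.7% of tested genes. The CCAAT box (CCAAT) was found in 19 of 32 members (59.4%), 15 of the 20 mitosis genes (75%) and 39.2% of tested genes. Within the members, the median log2 change was 1.23 for the 14 with an E2F site and 1.19 for the 18 without. It was 0.62 for the 6 with a CHR (Dut, Gins3, Mcm2, Mcm7, Rfc3 and Rrm1) and 1.26 for the 26 without, a difference noticed in these data and not tested. Mean GC content of the promoters was 59.8% for members and 60.4% for tested genes. With the 250 bases before the start site alone, 9 members held the E2F site and 14 the shorter core. A match describes letters in a window and is no evidence of binding.

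Apart from Orc1, all 9 genes for loading the helicase rose, with a median log2 change of 1.28. Cdt1, which brings MCM2-7 to the origin and is destroyed once S phase begins, stood at 16.4 TPM in AdMSC 1 and 12.2 in SyMSC 1, against 3.09 in PBS 1 and 2.29 in PBS 2 (log2 change 2.05 with an SE of 0.21, limma adjusted p = 0.00096). Its partner Cdc6, an ATPase that joins the origin recognition complex, stood at 10.7, 5.93, 2.67 and 1.73 TPM in the same order. SyMSC 1 was 0.556 times AdMSC 1 for Cdc6, the widest gap between the injected libraries among the members, yet both lay above PBS. Orc1, the subunit of the origin recognition complex that cycles with cell division, was among the lowest members, at 4.73, 3.62, 0.88 and 0.75 TPM; since it passed the filter through the injected libraries alone, these levels are a description with no test. The smallest subunit gene, Orc6, rose by 1.20.

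The 6 subunits of the MCM2-7 ring changed by unequal amounts. Mcm5 went from 10.4 and 9.40 TPM in PBS 1 and PBS 2 to 48.5 and 35.5 in AdMSC 1 and SyMSC 1 (log2 change 1.97 with an SE of 0.18, limma adjusted p = 0.000682). Mcm3 went from 12.7 and 10.8 to 44.5 and 38.1 TPM (log2 change 1.73 with an SE of 0.15, limma adjusted p = 0.000607). Mcm4 (1.28), Mcm6 (1.28) and Mcm2 (1.15) lay between. Mcm7, the subunit with the highest PBS level, went from 33.3 and 35.3 to 58.8 and 48.2 TPM (log2 change 0.62 with an SE of 0.14, limma adjusted p = 0.0147), and its call was lost without PBS 1 (limma adjusted p = 0.0667). Since TPM is per length, the subunits can be compared within a library. The highest subunit was 3.21 times the lowest in PBS 1 and 3.76 times in PBS 2, with Mcm7 highest and Mcm5 lowest in both. It was 1.40 times the lowest in AdMSC 1 (Mcm2 over Mcm3) and 1.36 times in SyMSC 1 (Mcm7 over Mcm5). The coefficient of variation over the 6 subunits was 42.2% and 51.7% with PBS and 12.9% and 13.3% after injection.

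**Figure D3:**
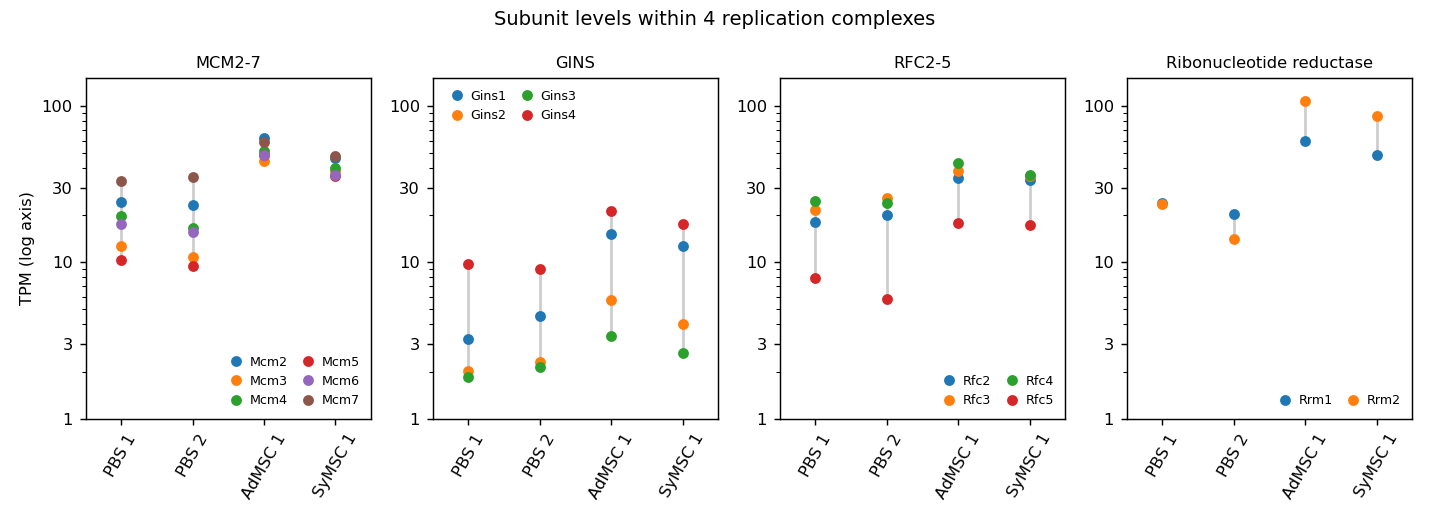
TPM (log axis) of the subunits of 4 complexes in each library, 1 point per subunit, with a grey line from the lowest to the highest. The 6 MCM points lie within 1.40 times of each other in the injected libraries and spread over 3.21 and 3.76 times with PBS, while the GINS points stay apart in all 4 libraries. The RFC2-5 points also lie closer in AdMSC 1 and SyMSC 1 (2.43 and 2.07 times) than in PBS 1 and PBS 2 (3.14 and 4.42 times).

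Genes that turn the loaded ring into a running helicase rose in 5 of 6 cases, with a median log2 change of 1.18. Gins1 went from 3.24 and 4.52 TPM in PBS 1 and PBS 2 to 15.1 and 12.8 in AdMSC 1 and SyMSC 1 (log2 change 1.62 with an SE of 0.20, limma adjusted p = 0.00154). Mcm10, a scaffold that joins helicase and polymerase, changed by 1.57 and Cdc45, the helicase cofactor, by 1.40. Gins4 had the highest level of the group, at 21.4, 17.6, 9.78 and 9.09 TPM in AdMSC 1, SyMSC 1, PBS 1 and PBS 2. Gins3 stood at 3.37, 2.62, 1.85 and 2.13 TPM; its libraries did not overlap between groups, but the change did not pass (log2 change 0.41 with an SE of 0.20, limma adjusted p = 0.125). Gins2 rose by 0.89, and that call was lost without AdMSC 1 (limma adjusted p = 0.083) or PBS 1 (0.0546). GINS is a 1-to-1 complex of its 4 subunits, yet Gins4 stayed between 4.27 and 6.72 times the level of Gins3 in the 4 libraries. Unlike for the MCM ring, the gap was no smaller after injection (6.36 and 6.72 times) than with PBS (5.29 and 4.27 times). The narrowing was not particular to the MCM ring. Among the clamp loader subunits Rfc2 to Rfc5, the highest was 3.14 and 4.42 times the lowest in PBS 1 and PBS 2. It was 2.43 and 2.07 times the lowest in AdMSC 1 and SyMSC 1.

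The polymerase and primase genes rose in 5 of 5 cases, by less (median log2 change 0.86). Pole, the catalytic subunit of the leading strand polymerase, stood at 8.45, 5.94, 2.61 and 2.12 TPM in AdMSC 1, SyMSC 1, PBS 1 and PBS 2 (log2 change 1.27 with an SE of 0.22, limma adjusted p = 0.00496). Prim1, the catalytic subunit of primase, which lays the RNA primer, had the highest mean, at 23.4, 17.9, 12.4 and 11.3 TPM (log2 change 0.74), and was lost without PBS 2 (limma adjusted p = 0.0507). Pola1, the catalytic subunit of the priming polymerase, changed least, at 6.06, 5.56, 3.68 and 2.96 TPM (log2 change 0.66 with an SE of 0.18, limma adjusted p = 0.0266). It was lost without AdMSC 1 (limma adjusted p = 0.108), SyMSC 1 (0.0746) or PBS 2 (0.129). Pola2, the accessory subunit of that polymerase, rose by 0.92 and Pold1, the catalytic subunit of the lagging strand polymerase, by 0.86.

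Pcna, the ring-shaped clamp that holds polymerases on DNA, was the most abundant member, at 127.7 and 110.4 TPM in AdMSC 1 and SyMSC 1 and 53.5 and 50.6 in PBS 1 and PBS 2 (log2 change 1.17 with an SE of 0.13, limma adjusted p = 0.00122). The 4 small subunits of replication factor C, which opens the clamp, also rose. Rfc5 changed most, at 17.7 and 17.3 TPM against 7.90 and 5.84 (log2 change 1.25 with an SE of 0.17, limma adjusted p = 0.00248). Rfc2 changed by 0.80 and Rfc4 by 0.66. Rfc3 changed least, at 38.6 and 35.5 TPM against 21.6 and 25.8 (log2 change 0.63 with an SE of 0.14, limma adjusted p = 0.0137), and was lost without PBS 1 (limma adjusted p = 0.0827). Of all members, Rfc5 and Rfc2 stood closest in the injected libraries, with ratios of SyMSC 1 over AdMSC 1 of 0.977 and 0.972. Fen1, the nuclease that trims Okazaki fragments, went from 7.39 and 5.54 to 17.7 and 16.0 TPM (log2 change 1.27 with an SE of 0.18, limma adjusted p = 0.00244). Lig1, the ligase that seals them, went from 24.03 and 21.5 to 49.5 and 38.7 TPM (log2 change 0.92 with an SE of 0.16, limma adjusted p = 0.00538).

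Genes that supply deoxynucleotides rose in 5 of 5 cases and held both the largest and 1 of the smallest changes. Rrm2 stood at 107.8 TPM in AdMSC 1 and 86.2 in SyMSC 1, against 23.6 in PBS 1 and 14.1 in PBS 2 (log2 change 2.34 with an SE of 0.26, limma adjusted p = 0.00158). Tk1, the thymidine kinase of dividing cells, changed by 1.74. Rrm1, the large subunit of the same reductase as Rrm2, changed by 1.24 and Tyms, thymidylate synthase, by 1.18. Dut, which removes dUTP before it enters DNA, stood at 46.0, 38.9, 29.7 and 26.3 TPM (log2 change 0.58 with an SE of 0.15, limma adjusted p = 0.019) and was lost without AdMSC 1 (limma adjusted p = 0.0691) or PBS 2 (0.105). The level of Rrm2 was 0.977 and 0.692 times that of Rrm1 in PBS 1 and PBS 2 and 1.81 and 1.78 times in AdMSC 1 and SyMSC 1. Rrm2 was thus above Rrm1 in both injected libraries, clearly below it in PBS 2 and nearly equal to it in PBS 1.

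Uhrf1, which carries DNA methylation over to the new strand, stood at 19.6, 13.1, 3.87 and 2.91 TPM in AdMSC 1, SyMSC 1, PBS 1 and PBS 2 (log2 change 1.97 with an SE of 0.23, limma adjusted p = 0.00145). The subunits of chromatin assembly factor 1, which loads histones behind the fork, changed by 1.53 (Chaf1b) and 0.92 (Chaf1a). Chaf1a had the highest mean of the group, at 16.6, 12.4, 7.22 and 7.05 TPM. Of the regulators, the cyclin genes changed more than the E2F genes. Ccne2 stood at 10.2, 7.23, 1.39 and 2.33 TPM (log2 change 1.76 with an SE of 0.25, limma adjusted p = 0.00257), and Ccne1 changed by 1.59. E2f1 stood at 16.8, 13.2, 7.03 and 6.45 TPM (log2 change 1.04 with an SE of 0.17, limma adjusted p = 0.00409). E2f2, at 7.33, 10.4, 4.91 and 3.39 TPM, was the 1 member that was higher in SyMSC 1 than in AdMSC 1 (log2 change 0.94 with an SE of 0.24, limma adjusted p = 0.0195), and was lost without SyMSC 1 (limma adjusted p = 0.094) or PBS 2 (0.0722).

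Set against the PBS library with the same title word, both cell sources showed the change, with 1 library on each side and so no test. AdMSC 1 was at least 2-fold above PBS 1 (ratio of TPM + 1, higher value at least 5 TPM) for 30 of 40 members and for 9.0% of tested genes, and at least 2-fold below it for none, against 9.89% of tested genes. SyMSC 1 passed the same fold over PBS 2 for 23 of 40 members and for 10.4% of tested genes, and lay 2-fold below for none, against 12.2%. Against PBS 1 in place of PBS 2 the count of members past the fold was 15. The share of tested genes for that pair is not given, so this count has no background beside it. The members' median log2 ratio was 1.23 in the Ad-titled pair and 1.18 in the Sy-titled pair. Ccne2 differed most between them in 1 direction, at 2.22 in the Ad pair and 1.31 in the Sy pair, and E2f2 in the other, at 0.50 and 1.38.

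Between the injected libraries the members were lower in SyMSC 1 for 39 of 40, while AdMSC 1 exceeded SyMSC 1 for 65.4% of tested genes. The gap was small and even: the median TPM ratio of SyMSC 1 over AdMSC 1 was 0.779, with quartiles of 0.743 and 0.845. No member passed 2-fold in either direction (background 1.1% higher and 0.546% lower). The lowest log2 ratios were those of Cdc6 (-0.75), Chaf1b (-0.55), Uhrf1 (-0.55), Pola2 (-0.51) and Tk1 (-0.47). The highest were those of E2f2 (0.46), Rfc5 (-0.03), Rfc2 (-0.04), Pola1 (-0.11) and Rfc3 (-0.12). The median log2 ratio was -0.32 for members and -0.09 for all tested genes. After median-ratio scaling it was -0.24 and -0.02. With that scaling 37 of 40 members were lower, and the matching share of tested genes was not computed. The PBS libraries, labelled alike, also differed: PBS 1 exceeded PBS 2 for 30 of 40 members and for 54.3% of tested genes, with a median log2 ratio of -0.14 for PBS 2 over PBS 1. There too no member passed 2-fold (background 0.725% higher and 0.972% lower). Rrm2 (-0.70) and Tk1 (-0.58) had the lowest ratios there and Ccne2 (0.48) and Cdc45 (0.42) the highest. The order AdMSC 1, SyMSC 1, then both PBS libraries held for 39 of 40 members and 21.3% of tested genes. With 1 library per cell source, a difference between sources and a difference between libraries cannot be told apart.

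**Figure D4:**
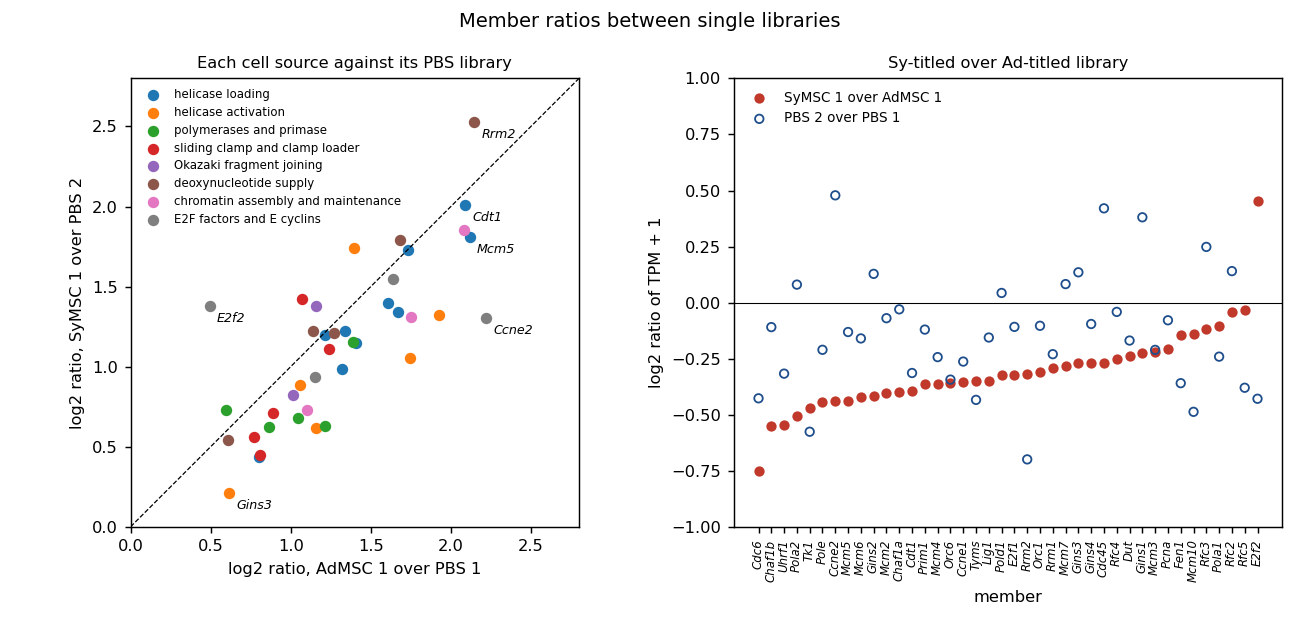
Left, log2 ratio of TPM + 1 of each member in AdMSC 1 over PBS 1 (x) and SyMSC 1 over PBS 2 (y), with the line of equality dashed; all 40 points lie above 0 on both axes. Right, log2 ratio of SyMSC 1 over AdMSC 1 (filled) and PBS 2 over PBS 1 (open) for each member; the filled points lie between -0.75 and 0.46, and E2f2 alone is above 0.

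Other genes of DNA replication were taken from a wider list that holds none of the members. Of 50 tested, 28 rose, 22 did not pass and 0 fell (0 also at an unadjusted p under 0.05 and below 0), with a median log2 change of 0.68. Without AdMSC 1 the number was 17. Clspn and Ticrr passed the filter through the injected libraries alone, and 26 of the other 48 genes rose. Gmnn, the inhibitor of CDT1, went from 3.60 and 4.84 TPM to 18.4 and 18.1 (log2 change 1.89 with an SE of 0.17, limma adjusted p = 0.000691). The checkpoint mediator gene Clspn stood at 4.25 and 3.66 TPM against 0.70 and 0.59. The histone chaperone gene Asf1b (1.59) rose, as did the PCNA-binding factor gene Pclaf (1.57), which was lost without AdMSC 1 (limma adjusted p = 0.186) or SyMSC 1 (0.107). Chosen after their values were seen, the remaining subunits of the members' complexes mostly did not pass. Of the origin recognition genes Orc2 (0.27), Orc3 (0.16), Orc4 (0.50) and Orc5 (0.15), Orc4 passed, and it was lost without any 1 of the 4 libraries (limma adjusted p from 0.0628 to 0.137). The large clamp loader subunit Rfc1 (0.28) and the polymerase subunits Pold2 (0.14), Pold4 (0.11), Pole3 (0.18) and Pole4 (-0.18) did not pass, whereas Pole2 (1.10) and Pold3 (0.69) did. Pold3 was lost without AdMSC 1 (limma adjusted p = 0.122), SyMSC 1 (0.0554) or PBS 2 (0.143).

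Regulators of entry into S phase were mixed: 10 of 26 rose, 1 fell and the other 15 missed the threshold (median log2 change 0.40). Without AdMSC 1 the number higher was 4, without PBS 2 it was 6 and with no filter on low values it was 5. Rbl1, which encodes the retinoblastoma relative p107, went from 3.38 and 1.93 TPM in PBS 1 and PBS 2 to 15.7 and 12.2 in AdMSC 1 and SyMSC 1 (log2 change 2.05 with an SE of 0.25, limma adjusted p = 0.00154). The gene that fell was Tfdp2, which encodes an E2F partner (log2 change -0.71), and it was lost without AdMSC 1 (limma adjusted p = 0.0642), SyMSC 1 (0.0922) or PBS 2 (0.127). The transcription factor gene Mybl2 (2.03) and the repressor gene E2f8 (1.60) rose. The S phase cyclin gene Ccna2 rose by 1.84 and was lost without AdMSC 1 (limma adjusted p = 0.0731) or SyMSC 1 (0.0505). Among 6 inhibitors of cyclin-dependent kinases, Cdkn1a, which encodes p21, rose from 35.0 and 26.7 to 98.9 and 142.9 TPM (log2 change 1.92 with an SE of 0.22, limma adjusted p = 0.00144). Cdkn1c, which encodes p57, fell from 117.0 and 72.6 to 13.2 and 8.18 TPM (log2 change -3.03 with an SE of 0.32, limma adjusted p = 0.00208). The other 4 did not pass: Cdkn1b (0.08), Cdkn2c (0.36), Cdkn2a (-0.49) and Cdkn2b (-0.55). The number of inhibitors that fell was 2 in place of 1 without AdMSC 1, under upper-quartile scaling and without trend or robust moderation.

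Replication checkpoint genes stayed closest to all tested genes, where 1 of 11 rose, 1 fell and 9 missed the threshold (median log2 change 0.08). The phosphatase gene Cdc25c changed by 0.72 and was lost without AdMSC 1 (limma adjusted p = 0.133) or PBS 2 (0.116). The kinase gene Wee1, which restrains cyclin-dependent kinases, changed by -0.65 and was lost without SyMSC 1 (limma adjusted p = 0.0808) or PBS 1 (0.0841). Rad9a (0.08) and Rad17 (-0.17), which mark stalled forks, did not pass. Recombination genes that act at forks rose in 11 of 13 tested cases and did not pass in 2 (median log2 change 1.02), and the number was 6 without AdMSC 1. Exo1 and Fanca passed the filter through the injected libraries alone, and 9 of the other 11 rose. They included Bard1 (1.70), Rad54l (1.33) and Fanci (1.30). Mitosis and G2 genes rose in 23 of 24 cases with a median log2 change of 1.5, among them the kinase genes Plk1 (2.08), Cdk1 (1.85) and Ttk (1.74) and the proliferation marker Mki67 (1.72). Their injected and PBS libraries did not overlap for any of the 24. AdMSC 1 exceeded SyMSC 1 for 22 of those 24 genes, with a median log2 ratio of -0.22 for SyMSC 1 over AdMSC 1. The difference between the S phase and mitosis medians was not tested.

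**Figure D5:**
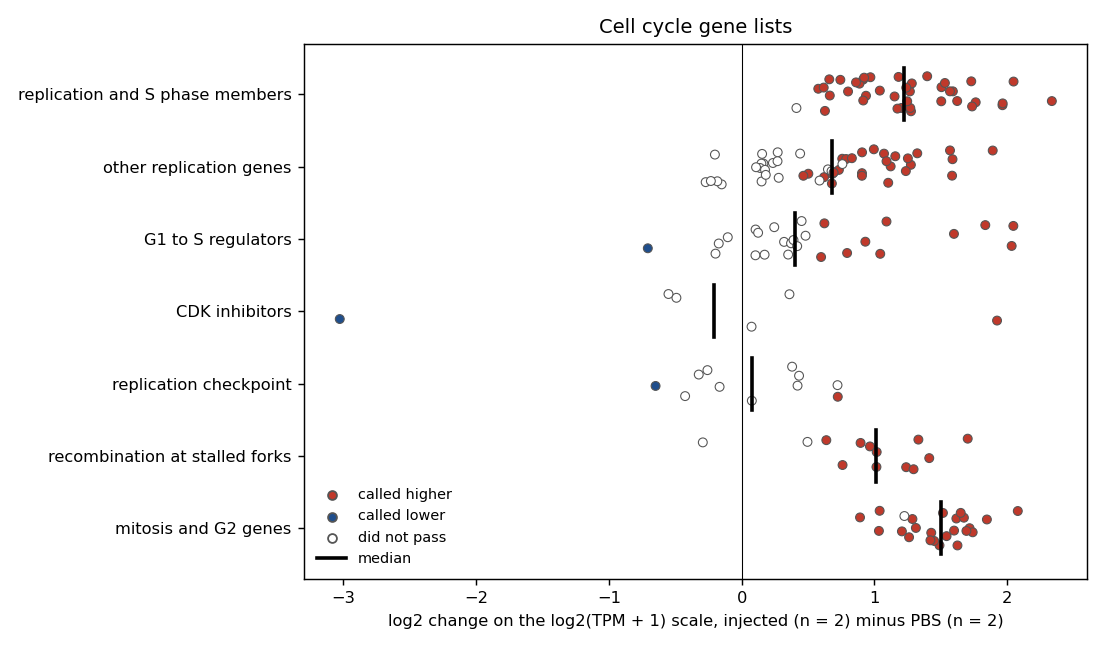
Log2 change (injected minus PBS, x axis) of each tested gene in the members and 6 other cell cycle lists; red points were called higher, blue lower, open points did not pass, and the black bar is the list's median. Medians are 1.22 for the members, 1.5 for mitosis and G2 genes and 0.08 for the replication checkpoint.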

How the data were processed

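Synovium RNA was sequenced as oligo-dT selected, strand-marked libraries on a BGISEQ-500, per the labels' protocols. The authors deposited 1 table of gene levels in TPM, per the file header, with every library summing to the same total. HISAT2 2.0.4 and the build Rnor_6.0 are named in the submitters' processing notes. Which counter and annotation were used, whether strand was used, and how reads of the injected human cells were handled: not given in the sources used here. Because TPM keeps no depth, counting intervals are left out and the depth is unknown; reads of near-identical copies may be split between genes. Treatments came from the labels, and 2 injected were set against 2 PBS libraries. The injected group joins AdMSC 1 and SyMSC 1, since each cell source had 1 library. Its spread therefore includes any difference between cell sources. Tests covered the 13371 of 17899 genes that reached 1 TPM in 2 or more libraries, on log2(TPM + 1) with limma 3.58.1 (R 4.3.3; trend and robust moderation, residual degrees of freedom 2), with Benjamini-Hochberg adjustment over all tested genes; calls had an adjusted p under 0.05. The script was tested on simulated data. Single pairs of libraries were compared by a fold of 2 with the higher value at least 5 TPM. Alternatives were other filters, pseudocounts, scalings, moderation and group models, and leaving out each library. The genes named are, per role, those with the largest and smallest change, the highest mean and those that did not pass; in other lists the 4 with the largest change among those called, filled by mean level; and the 5 extremes of library ratios. Remaining members are given by their log2 change. A result that this rule would name in the other lists is not reported here. The members and lists were chosen with earlier results of these data known.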

Additional observations from a re-analysis of the deposited data

How the results depend on the processing

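Of 475 refits of single members under 12 alternatives, 463 kept direction and side of the threshold, 12 lost the call and none reversed; all 12 losses came from leaving out 1 library. Leave-one-out gave 35 to 36 members called and a median log2 change of 1.07 to 1.36. Over all genes it gave 2084 to 2974 called lower (3303 with all 4 libraries), with 2084 without PBS 1 and 2132 without PBS 2. In the other 6 cell cycle lists it gave 49 (without AdMSC 1) to 70 called higher against 74, and 1 (without SyMSC 1) to 3 called lower against 3. In these fits the lone library of a group is assumed to vary like the other group. Over all genes fewer were called higher in them too, and the median log2 change lay between -0.055 and 0.053. With PBS 1 in place of PBS 2, 15 members passed the fold in SyMSC 1, against 23, with no share of tested genes given for that pair. At a fold of 1.5, 1 member was lower in SyMSC 1 than AdMSC 1 and 1 was lower in PBS 2 than PBS 1, against 0 each. In the 250 bases before the start site alone, 9 members held the E2F site and 14 the short core, by a smaller window. With the title word as a replicate block 39 members were called, and 3250 of all genes higher; the pairs' deviations correlated at 0.117, and the labels do not say what same-titled libraries share. Under other scalings 39 members were called as well. Leaving out genes with both PBS libraries under 1 TPM, an alternative chosen after seeing the data, gave 38 of 39. With 2 libraries a group and no depth in TPM, small changes such as that of Gins3 (limma adjusted p from 0.0847 to 0.428 over 11 alternatives) could not be resolved.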
